A study of Mus musculus with 155 samples.

Results

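The unfolded protein response and the integrated stress response were followed through 33 genes in mouse KH2 embryonic stem cells (ESCs) and in the cells derived from them. The genes were taken from a named list of endoplasmic reticulum (ER) chaperones, ER-associated degradation (ERAD) genes and genes of the ATF4 pathway, and they were found in the deposited count tables by Ensembl gene ID. All 33 were present among the 55471 rows of the tables: 14 ER chaperones and folding enzymes, 7 ERAD and ER membrane genes, 5 transcription factors and 7 ATF4 target genes. RNA was measured in 42 of the 155 samples of the series, as 32 ESC libraries, 6 libraries of retinoic acid (RA)-treated cells and 4 libraries of oligodendrocyte progenitor cells (OPCs). The remaining 113 samples were ChIP-seq and were not used here. Every line carried an extra, doxycycline (Dox)-inducible copy of the histone variant H3.3 with a SNAP-HA tag, at 1 uM Dox, on top of the cell's own H3.3 genes. The copy was wild type (WT-H3.3), H3.3K27M, in which lysine 27 is replaced by methionine as in diffuse midline glioma, or H3.3K27L, which also lacks the lysine but does not block the PRC2 methyltransferase. ESCs were grown in serum with LIF and 2i and were collected after 4, 8, 24 and 72 h of Dox in 2 replicates of WT-H3.3, of H3.3K27M, of H3.3K27L, and of WT-H3.3 cells given the PRC2 inhibitor GSK343. RA cells, labelled as ES-derived neural progenitor cells, had 1 library for each of the 3 lines at 24 h and at 72 h of Dox. OPCs, made from embryoid bodies with RA and purmorphamine, had 1 WT-H3.3 and 1 H3.3K27M library at each of the same times. The lines came from hygromycin-selected colonies, so line and clone cannot be told apart, and in RA cells the time in Dox and the time in differentiation medium cannot be told apart either. The ESC replicates were grown weeks apart. For RA cells and OPCs the 24 h and 72 h libraries served as the replicates of a line.

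The ER folds and glycosylates secreted and membrane proteins. When unfolded proteins build up there, the sensors IRE1, ATF6 and PERK are engaged. IRE1 splices the mRNA of Xbp1, and XBP1 together with cleaved ATF6 raises chaperones such as Hspa5 (BiP, the main ER Hsp70) and the ERAD machinery that sends misfolded proteins to the proteasome. PERK, and other kinases that sense amino acid shortage, viral RNA or lack of haem, phosphorylate the initiation factor eIF2alpha. That lowers general translation while Atf4 mRNA is translated better, and ATF4 then raises genes of amino acid synthesis and uptake and of the stress response. Much of this control is post-transcriptional (splicing of Xbp1, translation of Atf4), and gene-level RNA counts do not show it.

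The promoters of the chaperones and of the ATF4 targets hold different motifs, shown here because the lists were compared throughout. RefSeq promoter sequences of 300 bases (250 before and 50 after the start, build GRCm38.p6) were found for 31 of the 33 genes, all but Manf and Hyou1, and were searched on both strands. The ER stress element ERSE (CCAAT and CCACG with 9 bases of any kind between them) was found in 39 of 32851 promoters (0.119%) and in 9 of the 31 (29%). The shorter ERSE-II (ATTGG and CCACG with 1 base of any kind between them) was found in 12 promoters (0.0365%), and 2 of these belong to Dnajb11 and Herpud1. The C/EBP-ATF response element CARE (TGATGNAA), to which ATF4 heterodimers bind, was found in 1304 promoters (3.97%) and in 6 of the 31 (19.4%). Among the chaperones and folding enzymes with a promoter, 8 of 12 held ERSE or ERSE-II and 0 held CARE, while among ATF4 targets 0 of 7 held ERSE or ERSE-II and 4 of 7 held CARE. The unfolded protein response element TGACGTGG was found in none of the 31 (0.676% of all promoters), and the palindrome TGACGTCA in Ppp1r15a alone among them (1.79% of all promoters). A match of letters is not a bound site. Representative matches are given on the strand of the gene with up to 10 flanking bases on each side, and flanks to the right end at the start. The Trib3 match lies after the start and is shown without a right flank. The motif is in capitals (for CARE on the opposite strand, its reverse complement).
Hspa5, ERSE, chr2:34772015-34772053: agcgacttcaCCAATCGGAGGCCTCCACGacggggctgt
Hsp90b1, ERSE, chr10:86705628-86705666: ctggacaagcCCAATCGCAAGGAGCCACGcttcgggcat
Dnajc3, ERSE, chr14:118937817-118937855: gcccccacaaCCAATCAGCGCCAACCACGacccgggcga
Syvn1, ERSE, chr19:6046522-6046560: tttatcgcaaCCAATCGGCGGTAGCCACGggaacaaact
Herpud1, ERSE-II, chr8:94386367-94386397: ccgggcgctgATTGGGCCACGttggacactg
Herpud1, CARE, chr8:94386307-94386334: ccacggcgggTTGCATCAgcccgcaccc
Atf3, CARE, chr1:191183426-191183453: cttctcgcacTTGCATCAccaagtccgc
Chac1, CARE, chr2:119351039-119351066: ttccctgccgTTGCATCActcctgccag
Trib3, CARE, chr2:152344039-152344056: tagctcaggtTTACATCA
Asns, CARE, chr6:7693215-7693242: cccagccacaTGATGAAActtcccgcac
Slc7a11, CARE, chr3:50443662-50443689: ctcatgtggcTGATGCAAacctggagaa
Ppp1r15a, TGACGTCA palindrome, chr7:45526269-45526290: gcctctccggTGACGTCAgcac

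Levels are given as CPM, the counts of a gene relative to the library total after scaling by edgeR's TMM factors. A gene is called when its adjusted p was below 0.05 in edgeR's quasi-likelihood test (Benjamini-Hochberg over all genes tested) and its fold was above 2 or below 0.5, and it is said to pass the test when only the first of these holds. Library totals ranged from 5295859 to 21161392 counts in ESCs apart from H3.3K27L 72 h replicate 2 (68378) and GSK343 8 h replicate 2 (1247934), from 2239137 to 22269533 in RA cells and from 7499258 to 12387113 in OPCs. The summed level of the 8 pluripotency markers was 2917 to 6286 CPM in ESCs, 167.6 to 552.2 in RA cells and 25.04 to 145 in OPCs. The defining OPC markers did not all follow the OPC label: Olig2 was 303.1 to 1141 CPM in the 4 OPC libraries, but Sox10 did not exceed 3.72 and Pdgfra did not exceed 25.6. RA cells carried 2915 to 16450 CPM of endoderm markers beside 193.3 to 757.1 of neural markers. A large part of the endoderm sum in RA cells was Sparc, at 1165 to 6519 CPM, and Lama1, at 113 to 5154 CPM. Lama1 was 658.3 to 5154 CPM at 24 h and 113 to 447.9 CPM at 72 h. Chromosome 8 was left out of the fits, since the clones may carry an additional copy of it, so Calr (mm9 chr8:87365749-87370833) and Herpud1 (mm9 chr8:96910338-96919277) are given from the same fits with that chromosome kept. Within H3.3K27L, the median gene of chromosome 14 stood 0.54 to 0.58 (log2) above WT-H3.3 in replicate 1, and that of chromosome 8 stood 0.49 to 0.50 below it in replicate 2 without the 72 h library. In bulk RNA, fewer cells of a type and less RNA per cell cannot be told apart.

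**Figure D1:**
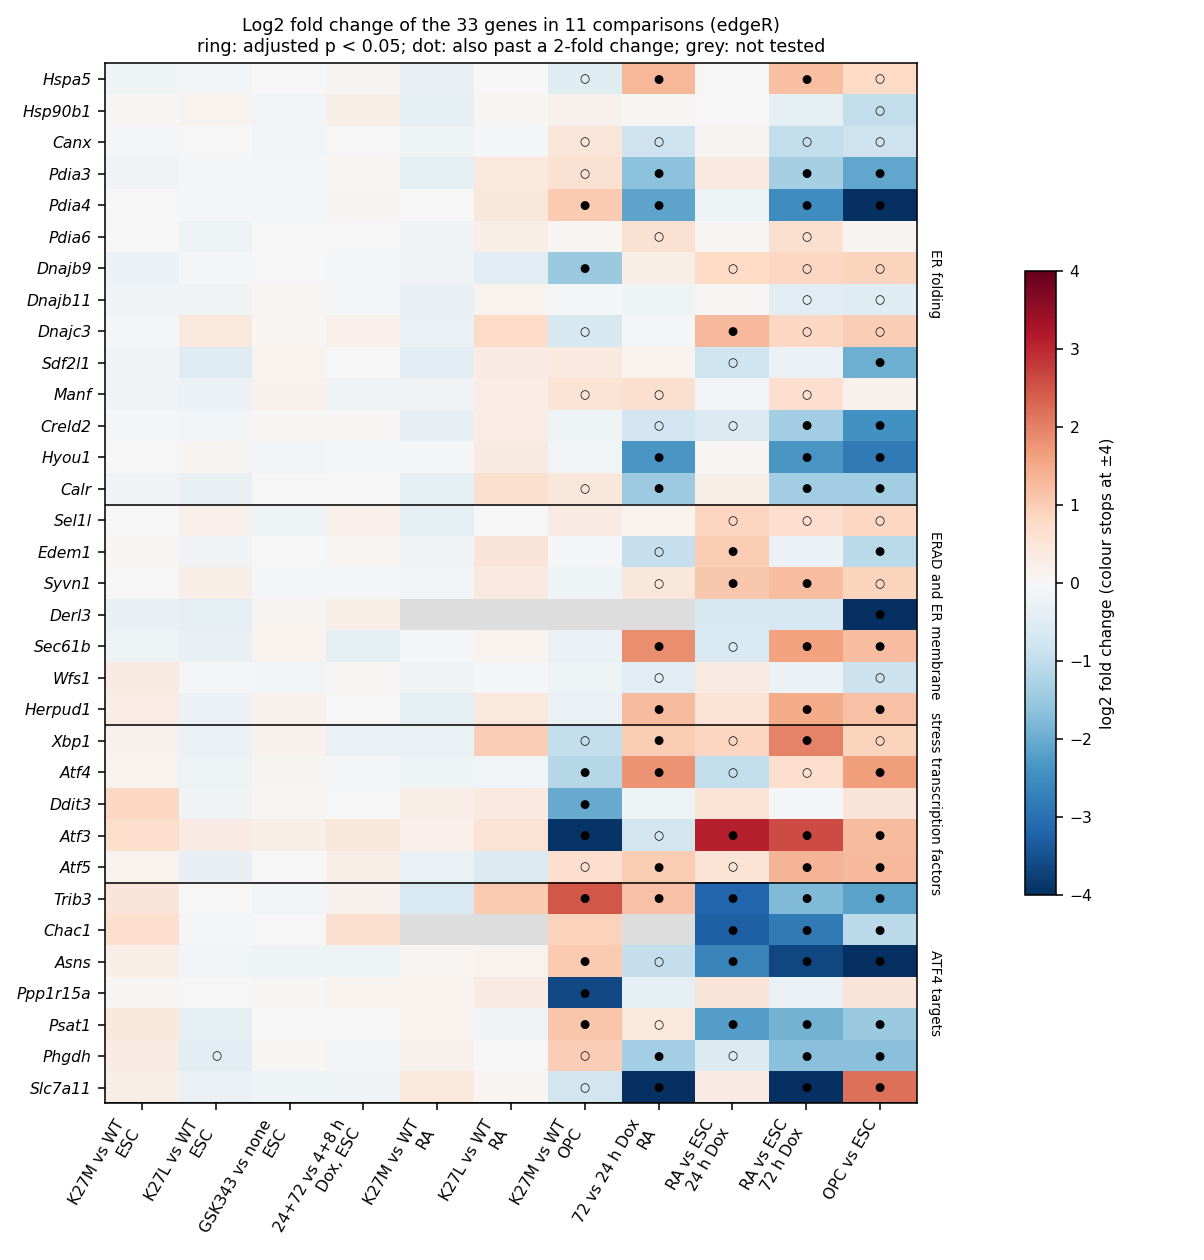
Log2 fold change (colour) of the 33 genes (rows, grouped by role) in 11 comparisons (columns). Rings mark an adjusted p below 0.05, dots a fold past 2 as well, and grey cells genes not tested; the ESC and RA line and treatment columns hold few marks, while the OPC column holds 3 transcription factors called lower and 3 ATF4 targets called higher.

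The first comparison asked whether H3.3K27M changed either branch in ESCs. No member was called, and the separation between the branches was small. The ATF4 targets and the transcription factors stood slightly above WT-H3.3 and the chaperones slightly below or level with it. Of the 31 members tested 0 were called by edgeR and 0 by DESeq2, and 7 had an unadjusted p below 0.05, against 2 of 14012 genes called (0.0143%) and 11.6% at an unadjusted p below 0.05. All 7 ATF4 targets and all 5 transcription factors had a log2 fold change above 0, where 49.1% of all genes did. Their medians were 0.33 and 0.17, beside -0.005 for all genes, and 13 of the 14 chaperones and folding enzymes lay below 0 with a median of -0.10. Of 31 further ATF4 pathway genes tested, 30 lay above 0 with a median of 0.32 and 0 were called. That list was chosen with earlier results of these data known, and it holds Ddit4, which the paper names as raised by H3.3K27M. Its genes come from the same libraries, so they are not independent support.

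Of the ATF4 targets Psat1 had the lowest p. This aminotransferase of serine synthesis (mm9 chr19:15979168-16021827) ranged from 323.8 to 510.4 CPM with a median of 410.4 in the 8 WT-H3.3 libraries. In the 8 H3.3K27M libraries it ranged from 413.4 to 724 with a median of 564.4. The ranges overlapped, and the log2 fold change of 0.46 (SE 0.15) did not pass edgeR's test (adjusted p = 0.242). Phgdh, the first enzyme of the same pathway, was 63.4 to 102.6 CPM (median 87.9) in WT-H3.3 and 67.7 to 145.8 CPM (median 102.1) in H3.3K27M, a log2 difference of 0.33 (SE 0.12, edgeR adjusted p = 0.288). Ddit3 (CHOP, a transcription factor induced in prolonged stress) was 5.21 to 10.9 CPM in WT-H3.3 and 5.97 to 20.7 CPM in H3.3K27M, a log2 difference of 0.82 (SE 0.21, edgeR adjusted p = 0.155).

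For Psat1, Asns and Ddit3 the higher values came from the libraries numbered replicate 2. For Psat1 the 4 H3.3K27M libraries of replicate 1 held 413.4 to 496.3 CPM and the 4 of replicate 2 held 632.4 to 724 CPM. WT-H3.3 held 323.8 to 510.4 CPM in replicate 1 and 330.2 to 413.1 CPM in replicate 2. Only the replicate 2 libraries of H3.3K27M stood clear of WT-H3.3. Asns, the asparagine synthetase, did the same, at 616.8 to 823.6 CPM in replicate 1 of H3.3K27M and 906.1 to 1076 CPM in its replicate 2, beside 543.5 to 858.1 CPM over all WT-H3.3 libraries. Ddit3 was 5.97 to 12.2 CPM in replicate 1 and 10.6 to 20.7 CPM in replicate 2, with overlap. Phgdh did not share this at 72 h, where the replicate 2 library held 67.7 CPM, less than the 87.2 of replicate 1. With replicate as a block over all ESC libraries, 0 members and 23 genes (0.164%) were called. H3.3K27M and WT-H3.3 libraries of the same number deviated together, but the H3.3K27L and GSK343 libraries of the same fit did not do so throughout.

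The chaperones did not share this. Hspa5 was 816.4 to 1114 CPM (median 1015) in WT-H3.3 and 692.2 to 1185 CPM (median 881.7) in H3.3K27M, a log2 difference of -0.17 that did not pass edgeR's test (adjusted p = 0.562). Hsp90b1 (GRP94, the ER Hsp90) was 583.4 to 922.9 CPM and 578.6 to 1272 CPM. Its highest value came from the 72 h replicate 2 library.

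**Figure D2:**
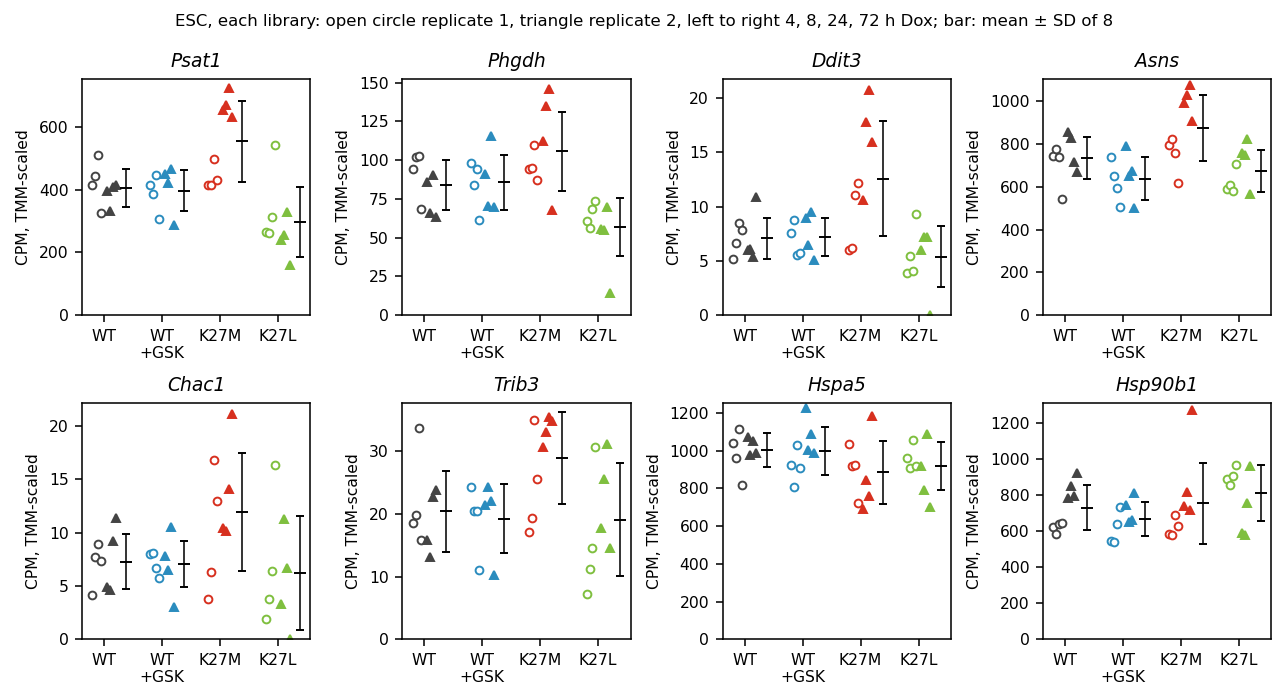
CPM (linear axes) of Psat1, Phgdh, Ddit3, Asns, Chac1, Trib3, Hspa5 and Hsp90b1 in each of the 32 ESC libraries, by line or treatment and from 4 h to 72 h of Dox, with open circles for replicate 1 and triangles for replicate 2. Bars give the mean and SD of the 8 libraries of a group; for Psat1 the 4 triangles of H3.3K27M lie at 632.4 to 724 CPM, above all WT-H3.3 points.

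H3.3K27L lacks the same lysine, and in ESCs 1 member, Phgdh, passed the test against WT-H3.3, on the lower side. Of 31 members 0 were called by edgeR and 0 by DESeq2, where 3.43% of genes were, and 6 had an unadjusted p below 0.05 where 23% of genes did. It did so only at a fold under 2 (8.14% of genes passed), with 14.6 to 73.9 CPM (median 58.5) beside the 63.4 to 102.6 CPM of WT-H3.3. Its log2 fold change was -0.42 (SE 0.13, edgeR adjusted p = 0.0416), and it did not pass in 17 of the 32 fits that left out a library, nor when only the libraries compared entered the fit (adjusted p = 0.098). The lowest Phgdh value belonged to the library of 68378 counts, and without that library the range was 55.2 to 73.9 CPM. Psat1 stood 0.40 below WT-H3.3 (SE 0.16, edgeR adjusted p = 0.124).

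The co-chaperone Dnajc3 (P58IPK, an inhibitor of PERK) lies on chromosome 14 (mm9 chr14:119337154-119380924) and moved with it. It was 85.3 to 94.7 CPM in the 4 H3.3K27L libraries of replicate 1, 40.6 to 45.7 CPM in 3 of replicate 2 and 46.4 to 66.7 CPM in WT-H3.3. Over both replicates its log2 difference was 0.41 (SE 0.18, edgeR adjusted p = 0.174). Calr (calreticulin) on chromosome 8 was 1419 to 1577 CPM in replicate 1 and 991 to 1208 CPM in 3 libraries of replicate 2, beside 1272 to 1692 CPM in WT-H3.3. The share of the chromosome shifts in these levels was not tested.

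The mutants were also set directly against each other, in a contrast added after the data were seen. It took the 8 libraries of each line as separate, although they came from 2 replicates. At folds under 2 they differed in some ATF4 targets and transcription factors, among them Xbp1 of the IRE1 arm. The chaperones did not differ detectably. No member was called at a fold of 2 (3.78% of genes were), by DESeq2 either, and 13 had an unadjusted p below 0.05 (24.6% of genes). At any fold 6 of 31 members passed the test, all higher in H3.3K27M, where 11% of genes passed and 6.08% were higher. They were 3 of the 7 ATF4 targets and 3 of the 5 transcription factors, and 0 of the 14 chaperones and folding enzymes. Phgdh stood 0.75 higher in H3.3K27M than in H3.3K27L (SE 0.13, edgeR adjusted p = 0.000505) and Psat1 0.86 higher (SE 0.16, adjusted p = 0.00096). For Psat1 the H3.3K27L libraries held 160.4 to 542.9 CPM with a median of 263.6, and the 542.9 of the 72 h replicate 1 library was the only value above 329.2. H3.3K27M stood clear of the other 7 libraries but not of that one.

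Ddit3 was 0.95 higher (SE 0.23, edgeR adjusted p = 0.00952), Xbp1 0.44 higher (SE 0.11, adjusted p = 0.00812), Atf5 0.46 higher (SE 0.13, adjusted p = 0.0248) and Asns 0.37 higher (SE 0.11, adjusted p = 0.035). For Asns and Ddit3 every replicate 2 library of H3.3K27M stood above all H3.3K27L libraries, and replicate 1 did so only in part. Replicate 1 of H3.3K27M held 616.8 to 823.6 CPM of Asns and 5.97 to 12.2 CPM of Ddit3. H3.3K27L without 72 h replicate 2 held 581.5 to 821.7 CPM and 3.91 to 9.30 CPM. In replicate 1 Ddit3 was above that range at 24 h (11.07 CPM) and 72 h (12.19 CPM), and Asns only at 8 h (823.6 CPM). Herpud1, an ER membrane protein of the ERAD complex, was 0.51 higher with chromosome 8 kept (SE 0.14, edgeR adjusted p = 0.0169), and it was lower in the replicate 2 libraries of H3.3K27L (14.4 to 15.7 CPM) than in its replicate 1 libraries (19.8 to 33.6 CPM). Asns did not pass without both ESC libraries of fewest counts (edgeR adjusted p = 0.0572), nor in 8 of the fits that left out a single H3.3K27M or H3.3K27L library (0.063 to 0.108). Atf5 did not pass with DESeq2 (adjusted p = 0.0616), with no filter on low counts (edgeR, 0.0844) or in 4 fits that left out a library (0.0513 to 0.0789). Without H3.3K27L 72 h replicate 1, Xbp1 (0.76, edgeR adjusted p = 0.0525) and Ddit3 (3.26, adjusted p = 0.138) did not pass although their values rose, and Xbp1 did not pass with no filter either (0.0525). Leaving out that library leaves the library of 68378 counts alone at that time. Of the further pathway genes that passed the test, those of lowest p on the higher side were Ddit4 (REDD1, an inhibitor of mTORC1), by 1.42, Sil1 (a nucleotide exchange factor of BiP), by 0.84, and Pycr1 (proline synthesis), by 0.92, and the cationic amino acid transporter Slc7a3 was lower (-0.43).

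The PRC2 inhibitor GSK343 asked whether loss of H3K27 methylation without a mutant histone touched these genes. Neither edgeR nor DESeq2 called any of the 31 members, none had an unadjusted p below 0.05 (4.84% of genes did) and 0 of 14012 genes were called (0%). Averaged over the Dox times, the members lay between -0.20 and 0.24 on the log2 scale. At 72 h the median of the ATF4 targets was -0.421 and -0.535 in the GSK343 libraries (log2, relative to the WT-H3.3 ESC mean). It was -0.273 and 0.042 in WT-H3.3 at 72 h and -0.092 to 0.215 with GSK343 at the earlier times. The 72 h libraries were not tested on their own. Psat1 was 286.2 to 465.9 CPM with GSK343 and 323.8 to 510.4 without. Hspa5 was 805.5 to 1226 CPM and 816.4 to 1114 CPM.

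Time in Dox was compared as 24 and 72 h against 4 and 8 h across the 4 ESC groups. No member was called by edgeR or DESeq2 (0.278% of genes were), and 4 had an unadjusted p below 0.05 (16.1% of genes). The largest was Chac1, a glutathione-degrading enzyme and ATF4 target, at 0.65 (edgeR adjusted p = 0.215). The translocon subunit Sec61b was 0.40 lower and Xbp1 0.27 lower late (edgeR adjusted p = 0.188 for Xbp1). A test of whether time acted differently between groups found 0 members (0% of genes), with the lowest unadjusted p at Chac1 (edgeR, 0.0337).

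In RA cells the lines were compared over both Dox times. No member was called by edgeR or DESeq2 in H3.3K27M or H3.3K27L (0% of 12233 genes in either), and none had an unadjusted p below 0.05 (0.114% and 1.51% of genes). The 24 h and 72 h libraries of a line differed widely, so the spread within a line was large. With Dox time as a block, 0 members were called in H3.3K27M (0.0163% of genes) and Xbp1 was called in H3.3K27L (3.64% of genes). Xbp1 was 148.6 and 258.7 CPM in H3.3K27L at 24 h and 72 h, beside 67.6 and 134.9 CPM in WT-H3.3 and 68.2 and 106.9 CPM in H3.3K27M. H3.3K27L was the highest line at either time, by 1.02 against WT-H3.3 (SE 0.16, edgeR adjusted p = 0.00496). Dnajc3 also passed the test in that fit (0.76, SE 0.15, edgeR adjusted p = 0.0142, with 6.96% of genes passing), and chromosome 14 stood 0.53 to 0.58 above WT-H3.3 in both RA libraries of H3.3K27L. These 2 libraries also held the most endoderm marker RNA, 11590 and 16450 CPM beside 5228 to 7667 CPM in WT-H3.3 and 2915 to 3455 CPM in H3.3K27M. Sparc held 5613 and 6519 CPM of it in H3.3K27L at 24 h and 72 h, and Lama1 held 5154 and 447.9 CPM. The part of endoderm marker RNA in the Xbp1 level was not tested.

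In OPCs, H3.3K27M was lower than WT-H3.3 in the transcription factors Atf3, Ddit3 and Atf4 and in the phosphatase subunit Ppp1r15a, and higher in the amino acid synthesis genes Psat1, Asns and Phgdh. Of 30 members tested 9 were called, 4 higher and 5 lower, which is near the share among all 12467 genes (27.9%, with 12.9% higher and 15% lower). At any fold 18 passed, where 51.5% of genes did. By role, with no test of the split, of the 5 transcription factors 3 were called lower and 0 higher, of the 7 ATF4 targets 3 were called higher and 1 lower, of the 14 chaperones and folding enzymes 1 was called in each direction, and of 6 ERAD and membrane genes 0 were called.

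Atf3, a stress-induced repressor and partner of ATF4 (mm9 chr1:192994175-193007219), was 32.3 and 28.7 CPM in WT-H3.3 at 24 h and 72 h and 1.43 and 2.52 CPM in H3.3K27M. Ppp1r15a (GADD34, which directs the dephosphorylation of eIF2alpha) was 128.8 and 156.8 CPM and 12.2 and 11.1 CPM. The lines did not overlap for either gene, and the log2 fold changes were -3.93 (SE 0.28, edgeR adjusted p = 1.2e-06) and -3.62 (SE 0.18, edgeR adjusted p = 1.71e-07). Of the 33 members, 11 lay apart on the higher side in H3.3K27M, 10 on the lower side, and 12 overlapped. The share of all genes that lay apart was not counted. Ddit3 was 20.5 and 33.5 CPM in WT-H3.3 and 3.17 and 10.1 CPM in H3.3K27M (-2.02, SE 0.40, edgeR adjusted p = 0.00153). Atf4 itself was 1977 and 1492 CPM in WT-H3.3 and 644.5 and 922.9 CPM in H3.3K27M (-1.15, SE 0.18, edgeR adjusted p = 0.000398). Xbp1 passed the test at -0.99, just short of a fold of 2. Atf5 went the other way (0.67, edgeR adjusted p = 0.0168), and it did not pass without H3.3K27M 72 h (adjusted p = 0.214).

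Among the ATF4 targets, Psat1 was 117.4 and 129.5 CPM in WT-H3.3 and 253.1 and 281 CPM in H3.3K27M, with no overlap (1.10, SE 0.13, edgeR adjusted p = 5.26e-05). Asns was 22.4 and 23.5 CPM in WT-H3.3 and 37.9 and 57.1 CPM in H3.3K27M (1.04, SE 0.20, edgeR adjusted p = 0.00142). Phgdh was 16.9 and 25.1 CPM against 31.5 and 51.9 CPM, and it passed the test at 0.99. All 3 enzymes stood higher in both H3.3K27M libraries than in either WT-H3.3 library, and they are among the 11 members that did so. The pseudokinase Trib3 was called higher (2.49, edgeR adjusted p = 0.00931) on 1.75 and 4.17 CPM against 4.6 and 28.3 CPM, but without H3.3K27M 72 h the value was 0.66 (adjusted p = 0.281), and DESeq2 did not call it (adjusted p = 0.105). The cystine transporter Slc7a11 was lower (19.3 and 26.7 CPM against 10.3 and 17.7 CPM, -0.72, edgeR adjusted p = 0.0422), and it did not pass in DESeq2 (adjusted p = 0.0575). Its value shrank to -0.395 without H3.3K27M 24 h and to -0.457 without WT-H3.3 72 h.

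The chaperones moved in both directions. The BiP co-chaperone Dnajb9 (ERdj4) was 52.8 and 72.9 CPM in WT-H3.3 and 16.5 and 28.8 CPM in H3.3K27M (-1.48, SE 0.25, edgeR adjusted p = 0.000563). The disulfide isomerase Pdia4 was 6.997 and 13.99 CPM in WT-H3.3 and 22.5 and 20.9 CPM in H3.3K27M (1.05, SE 0.30, edgeR adjusted p = 0.0117), and it did not pass without WT-H3.3 24 h (adjusted p = 0.0884). Hspa5 passed the test on the lower side (1728 and 2386 CPM against 1439 and 1525 CPM, -0.48), as did Dnajc3 (-0.63), while Pdia3 (0.61), Manf (0.56), Canx (0.49) and Calr (0.47) passed on the higher side. Hspa5 did not pass without WT-H3.3 72 h (edgeR adjusted p = 0.397), and Canx and Manf did not pass without WT-H3.3 24 h (adjusted p = 0.263 and 0.0615).

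Of 30 further ATF4 pathway genes tested in OPCs, 6 were called higher and 2 lower, where 12.9% and 15% of all genes were. The mitochondrial one-carbon enzymes Shmt2 (30.0 and 26.6 CPM in WT-H3.3, 104.6 and 108.6 CPM in H3.3K27M, 1.91) and Mthfd2 (36.3 and 59.3 CPM against 151 and 233.1 CPM, 1.996) were among those higher, with Pycr1 (1.67). The transcription factor Cebpb (-1.58) and the stress-induced Nupr1 (-1.06) were the 2 called lower. Among the sensors, Eif2ak2 (PKR, the eIF2alpha kinase for double-stranded RNA) was called lower too (-1.26).

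Markers of several cell types differed between the OPC cultures of the 2 lines. The summed OPC markers were 588.5 and 634.4 CPM in WT-H3.3 and 1953 to 2179 CPM in H3.3K27M, with 7 of 7 detected in each library. Within that list Olig1 (1.999), Olig2 (1.73), Cspg4 (3.20) and Nkx2-2 (1.40) were called higher in H3.3K27M, and the defining markers Pdgfra (-4.79) and Sox10 (-2.88) were called lower (log2). The 8 fibroblast markers summed to 630.3 to 683.6 CPM in WT-H3.3 and 35.6 to 38.8 CPM in H3.3K27M. The 10 endoderm markers summed to 3316 to 3732 CPM in WT-H3.3 and 835.2 to 1051 CPM in H3.3K27M. Most of that endoderm sum was Sparc, at 3022 and 2496 CPM in WT-H3.3 and 928.7 and 716.1 CPM in H3.3K27M. In the fibroblast list Thy1 (1.06) and Fbln2 (1.08) were called higher, against the sum. The 6 astrocyte markers summed to 1042 to 1063 CPM in WT-H3.3 and 1135 to 1510 CPM in H3.3K27M. Among them Gfap (-7.56), Aqp4 (-2.14) and Aldh1l1 (-1.80) were called lower, and Slc1a3 (0.45) and S100b (0.68) passed the test on the higher side. The part of these markers in the OPC differences of the 33 genes was not tested, and line and clone cannot be told apart here.

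**Figure D3:**
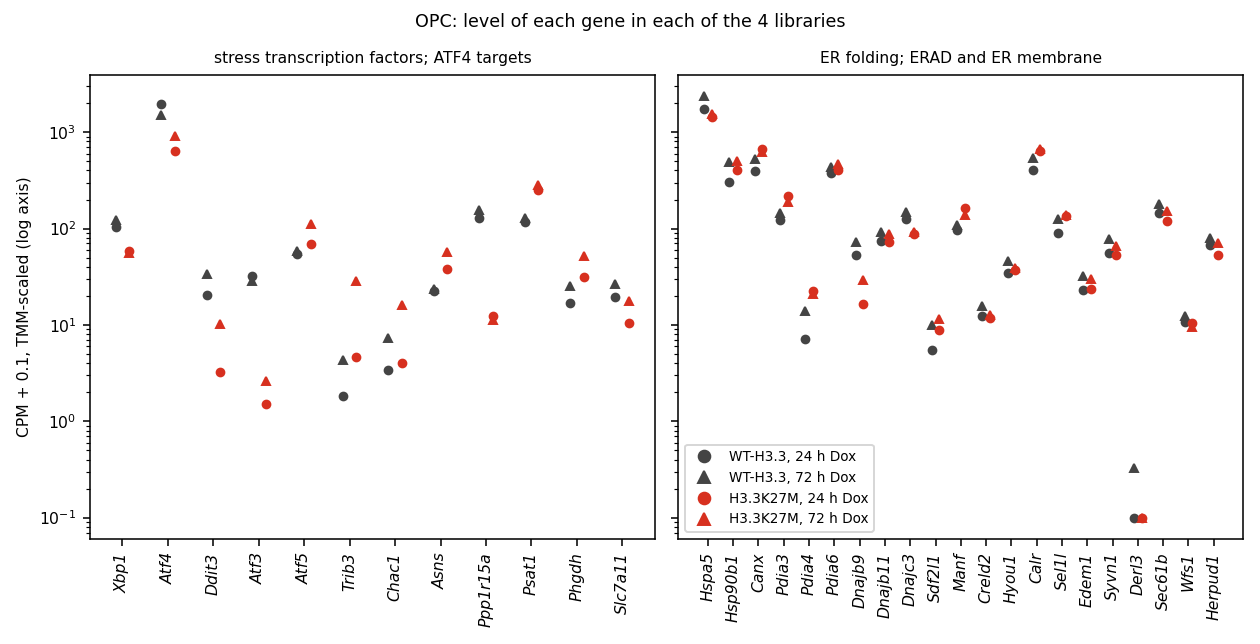
CPM plus 0.1 (log axis) of the members in the 4 OPC libraries, WT-H3.3 and H3.3K27M at 24 h and 72 h of Dox. Atf3, Ppp1r15a and Ddit3 lie lower in H3.3K27M, and Psat1, Phgdh and Asns lie higher, with both libraries of a line on 1 side.

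Whether H3.3K27M acted differently in OPCs than in ESCs was tested as the difference of its effects (12 libraries at 24 and 72 h, also added after the data were seen; it contains the OPC comparison, so the values are not independent of it). Of 31 members 8 were called, 2 with a higher and 6 with a lower effect in OPCs, where 16.4% of genes were (7.09% higher and 9.26% lower). The lower ones were 4 of the 5 transcription factors, Ppp1r15a and Dnajb9. Atf3 differed by -4.53 (SE 0.56, edgeR adjusted p = 2.28e-05), Ppp1r15a by -3.58 (SE 0.28, adjusted p = 3.11e-07), Ddit3 by -2.86 (SE 0.53, adjusted p = 0.000978), Atf4 by -1.27 (SE 0.28, adjusted p = 0.00336), Xbp1 by -1.07 (adjusted p = 0.0108) and Dnajb9 by -1.36 (adjusted p = 0.0173). Dnajb9 did not pass without OPC H3.3K27M 24 h (edgeR adjusted p = 0.131) or OPC WT-H3.3 72 h (0.108), and Xbp1 did not pass without OPC H3.3K27M 72 h (0.0522) or OPC WT-H3.3 72 h (0.0628). For Ddit3 the log2 fold change was 0.82 in ESCs over all Dox times, where it did not pass the test, and -2.02 in OPCs. The stages thus differed for Ddit3, but an effect of opposite sign in ESCs was not shown.

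Pdia4 (1.05, edgeR adjusted p = 0.0221) and Trib3 (2.06, adjusted p = 0.0427) had the higher effect in OPCs. Trib3 rested on 1 library, with 0.22 (adjusted p = 0.908) without OPC H3.3K27M 72 h, and it was not called by DESeq2. Pdia4 fell to 0.61 (edgeR adjusted p = 0.201) without OPC WT-H3.3 24 h. For Psat1, Phgdh and Asns, which did not pass the test in ESCs, the difference of the effects did not pass either.

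**Figure D4:**
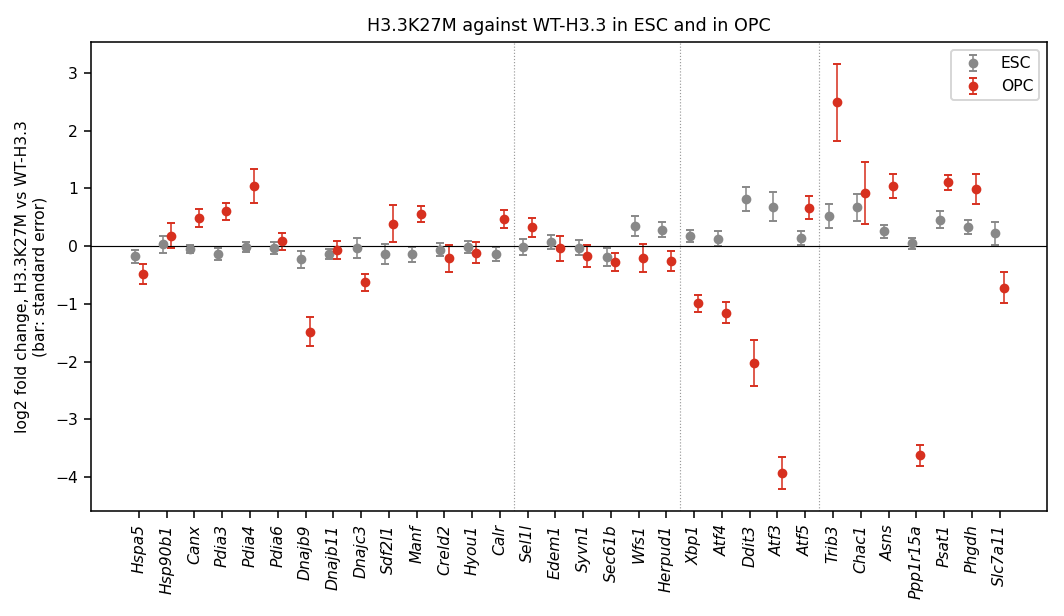
Log2 fold change of H3.3K27M against WT-H3.3 with its SE for the members, in ESCs and in OPCs. Atf3, Ppp1r15a and Ddit3 lie at -3.93, -3.62 and -2.02 in OPCs and above 0 in ESCs, while the serine and asparagine synthesis genes lie above 0 in both.

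Stages were compared with the line as a term (22 libraries, which share their ESC libraries between comparisons). After 24 h of Dox, RA cells were lower than ESCs in 4 of the 7 ATF4 targets, while of the 14 chaperones and folding enzymes 2 passed the test on the higher and 2 on the lower side. Of 31 members 8 were called, 4 in each direction, beside 42.1% of all genes (23.6% higher and 18.5% lower), and 17 passed at any fold (61% of genes). The 4 lower ones were all ATF4 targets, whose median was -2.20 beside 0.04 for the chaperones and folding enzymes tested with chromosome 8 left out and 0.03 for all genes. Of 31 further ATF4 pathway genes 14 were called lower and 1 higher.

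Asns ranged from 581.5 to 1076 CPM in the 6 ESC libraries at 24 h and was 123.7 to 127.4 CPM in the 3 RA libraries (-2.67, SE 0.22, edgeR adjusted p = 1.36e-09). Psat1 was 313.4 to 724 CPM in ESCs and 88.0 to 118.1 CPM in RA cells (-2.20, SE 0.27, edgeR adjusted p = 5.29e-07). Chac1 fell from 6.44 to 16.8 CPM in ESCs to 0.935 to 1.38 CPM (-3.26), and Trib3 from 14.6 to 35.5 CPM to 2.36 to 4.41 CPM (-3.16). None of these 4 overlapped between the stages. Atf3 was the opposite, with 3.14 to 10.4 CPM in ESCs and 47.1 to 74.7 CPM in RA cells (3.11, SE 0.55, edgeR adjusted p = 5.81e-05). Dnajc3 (1.28), the ERAD ubiquitin ligase Syvn1 (HRD1, 1.07) and the mannosidase-like Edem1 (1.00) were also called higher. With gene length offsets Syvn1 (0.85) and Edem1 (0.76) were no longer past a fold of 2, which left 2 members called higher and 4 lower. Over 14260 genes the log2 fold change of this comparison and the exonic length had a Spearman correlation of 0.26, with a median of -0.73 for the 10% of genes that were shortest and 0.60 for the 10% that were longest.

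After 72 h, 16 of 31 members were called, 6 higher and 10 lower (56.9% of genes were called, 26.5% higher and 30.4% lower), and 24 passed at any fold (70.1%). The median of all genes was -0.15 with TMM and 0.25 with DESeq2-type (RLE) size factors, and the latter gave 12 higher and 8 lower. Of the 7 ATF4 targets 6 were called lower, all but Ppp1r15a, and 0 were called higher. Xbp1 was 14.6 to 43.7 CPM in the 6 ESC libraries and 106.9 to 258.7 CPM in RA cells (1.99, SE 0.30, edgeR adjusted p = 4.84e-06). The chaperones split: Hspa5 rose (1.21, SE 0.18, edgeR adjusted p = 2.75e-06), and Pdia4 (-2.49), Hyou1 (-2.34), Creld2 (-1.38) and Pdia3 (-1.34) fell.

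In OPCs against ESCs 17 of 31 members were called, 5 higher and 12 lower (67.1% of genes were called, 31.3% higher and 35.8% lower), and 27 passed at any fold (82.7%). The all-gene median was -0.13 with TMM and 0.23 with RLE, where the split was 11 higher and 10 lower. Asns had 4.55 less on the log2 scale in OPCs (SE 0.21, edgeR adjusted p = 1.7e-14), and Pdia4 4.22 less (SE 0.23, adjusted p = 2.03e-13). Derl3, an ERAD gene, had 2 counts in the 4 OPC libraries and 277 in 12 ESC libraries, a ratio of 55.4 with a 95% counting interval of 15.2 to 459.5. Of the transcription factors, Atf4 (1.69, edgeR adjusted p = 1.28e-07) and Atf5 (1.30) were called higher. Atf3 was called too (1.27, edgeR adjusted p = 0.0321) but differed between the lines as above, and without OPC WT-H3.3 24 h it was -0.35. Slc7a11 was the only ATF4 target called higher, at 10.3 to 26.7 CPM in OPCs beside 0 to 5.50 CPM in the ESC libraries (2.20, SE 0.23, edgeR adjusted p = 1.63e-08). No member that passed the test in any of the 3 stage comparisons or the RA time comparison changed direction with RLE size factors or gene length offsets, and each lost 1 to 4 of them.

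**Figure D5:**
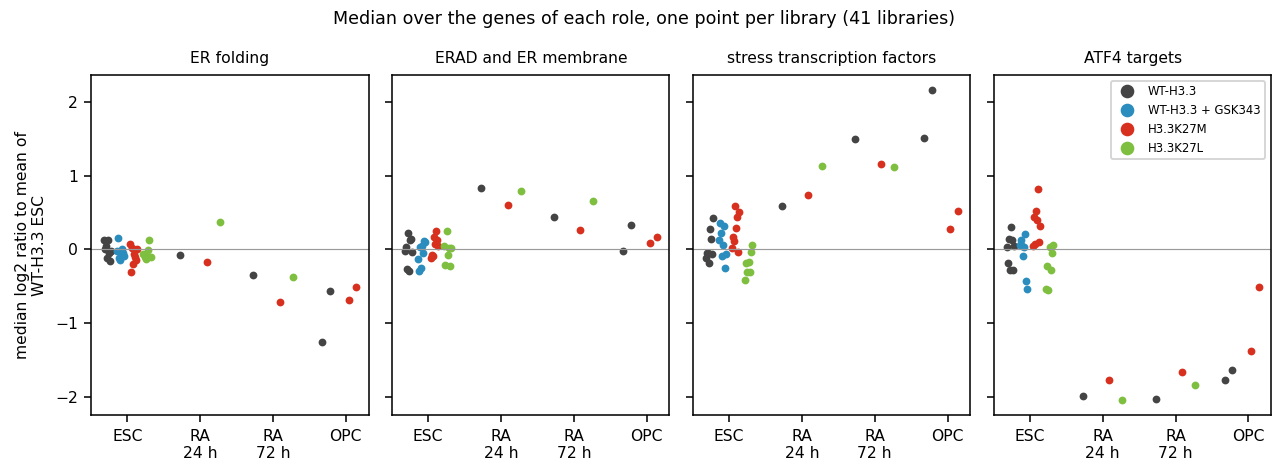
Median log2 ratio to the mean of WT-H3.3 ESCs over the members of each role, 1 point per library (41 libraries, the library of 68378 counts left out), by stage and line. ATF4 targets lie between -1.66 and -2.03 in RA cells and lowest in WT-H3.3 among OPCs, and transcription factors lie at 1.51 to 2.16 in WT-H3.3 OPCs and 0.27 to 0.52 in H3.3K27M OPCs.

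The role medians of single libraries give the same picture by line. In ESCs the ATF4 targets of H3.3K27M lay at 0.043 to 0.404 in replicate 1 and 0.314 to 0.814 in replicate 2 (log2, relative to the WT-H3.3 mean). They lay between -0.281 and 0.309 in WT-H3.3. That range held the replicate 1 libraries of H3.3K27M other than 24 h and none of replicate 2. In OPCs they lay at -1.63 and -1.77 in WT-H3.3 and at -0.51 and -1.38 in H3.3K27M. The chaperones and folding enzymes of OPCs lay at -0.56 to -1.25 in WT-H3.3 and -0.51 to -0.69 in H3.3K27M, with overlap.

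Within RA cells, folding enzymes differed in both directions between 72 h and 24 h of Dox, and Atf4, Xbp1 and Atf5 were higher at 72 h. The 24 h libraries stand apart from the 72 h libraries in the numbering of the samples. Dox time and any batch of libraries thus cannot be told apart. The paper calls these RA time points similar and pooled them. Of 29 members tested (Derl3 and Chac1 were too low) 11 were called, 6 higher and 5 lower, close to the 42.9% of all genes (20% higher and 22.9% lower), and 21 passed at any fold (69.5%). Hyou1 (GRP170, a nucleotide exchange factor of BiP) was 273.1 to 359.5 CPM at 24 h and 46.8 to 60.6 CPM at 72 h (-2.32, SE 0.14, edgeR adjusted p = 2.24e-08). Pdia4 was 215 to 317.4 CPM and 38.3 to 57.5 CPM (-2.12, SE 0.16, edgeR adjusted p = 2.22e-07), and Pdia3 742.5 to 1385 CPM and 220.2 to 316.6 CPM (-1.65). Calr also fell, by 1.45 on the log2 scale. In contrast Hspa5 was 898.9 to 1226 CPM at 24 h and 1904 to 2424 CPM at 72 h (1.32, SE 0.17, edgeR adjusted p = 1.89e-05), and the 3 libraries of each time did not overlap for Hyou1, Pdia4, Pdia3 or Hspa5. Of the 14 chaperones and folding enzymes 3 passed on the higher side, with Manf (0.65) and Pdia6 (0.60) beside Hspa5, and 6 on the lower.

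Atf4 was 155.4 to 209.9 CPM at 24 h and 499.4 to 616.3 CPM at 72 h (1.80, SE 0.16, edgeR adjusted p = 9.03e-07), and Sec61b 43.9 to 55.4 CPM and 145.2 to 160 CPM (1.87). Xbp1 (1.02), Atf5 (1.01), Herpud1 (1.26) and Trib3 (1.18) were also called higher. Trib3 did not pass without either H3.3K27L library (edgeR adjusted p = 0.267 and 0.257) or with gene length offsets (0.0592). The ATF4 targets were mixed, with 2 of the 6 tested passing on the higher side (Trib3, and Psat1 at 0.42, edgeR adjusted p = 0.0106) and 3 on the lower. Phgdh was 65.0 to 72.1 CPM at 24 h and 20.04 to 26.5 CPM at 72 h (-1.37, SE 0.15, edgeR adjusted p = 6.13e-06), Asns passed the test on the lower side (-0.95), and Slc7a11 had 199 counts in the 24 h libraries and 1 in the 72 h libraries (of 34783688 and 8612746), a ratio of 49.3 with a 95% counting interval of 8.74 to 1956.

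The change from 24 h to 72 h moved with gene length. Over 11650 genes the log2 fold change and the exonic length had a Spearman correlation of -0.33, and the median was 1.18 for the 10% of genes that were shortest and -0.65 for the 10% that were longest. Against ESCs the correlation was 0.26 for the RA libraries at 24 h, as above, and -0.06 for those at 72 h. With gene length offsets 4 members were called higher and 7 lower, Sec61b stood at 1.03 and Atf5, at 0.64, was no longer past a fold of 2. A 3' kit and a whole-transcript kit were both used in the study, and which of them served which RA library is not given in the sources used here, so the part of the kit in these values was not tested.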

How the data were processed

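RNA was sequenced single-end in 42 libraries, prepared with the QuantSeq 3' or the KAPA kit (which kit served which library is not given in the sources used here). The authors aligned the reads to mm9 with STAR 2.7.1 and deposited raw counts per Ensembl gene (55471 rows of whole numbers, not normalized); the annotation they counted on is not given in the sources used here. Of these rows 32589, holding 98.2% of the counts, were matched to GENCODE vM1 for symbols and chromosomes. Following the study, chromosome 8 was left out of the fits (2532 rows: 1435 annotated there and 1097 unannotated IDs lying among them in the tables). Every column was assigned to a sample or, for both OPC 72 h columns, to its group, since their names give replicate 2 and the sample titles replicate 1.

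The counts were tested with edgeR 4.0.16 (TMM, filterByExpr, quasi-likelihood F test, Benjamini-Hochberg over all genes tested) in R 4.3.3. The SE is the size of the log2 fold change divided by the square root of F. The ESC fit estimated 1 mean per group and Dox time from all 32 libraries, the RA and OPC fits took both Dox times as replicates of a line, and the stage fit held 22 libraries with line as a term. These p-values measure the spread between such libraries. In ESCs the Dox times of a replicate counted as separate libraries, although each line had only 2 replicates. Levels such as Psat1 in H3.3K27M went by replicate number at every Dox time. The SE and p-values of the ESC line comparisons can thus be too small for a difference between lines. DESeq2 1.42.0, RLE size factors, no filter, chromosome 8 kept, gene length offsets, replicate or Dox-time blocks and leaving out each library were the alternatives. Named were members past the test, at least the 2 of lowest p in a role, and up to 3 further pathway genes of lowest adjusted p in each direction. Members and lists were chosen with earlier results of these data known. The fits were tested on simulated data. ESC replicate numbers paired H3.3K27M with WT-H3.3 (correlations of their deviations from the group means 0.605 to 0.711 over 8502 genes) but not H3.3K27L (-0.705 to 0.261) or GSK343 (-0.458 to 0.587). No libraries were duplicates of each other (lowest chi-square per gene 1.78). Intervals of counts cover counting error only. Figures were drawn with Matplotlib 3.10.9 in Python 3.11.15.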

Additional observations from a re-analysis of the deposited data

Results flagged for a closer look

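Of 160 groups of libraries checked with Dixon's test, 20 held a library far from the others, and chance alone would single out about 1 group in 20. In 11 of the 20 it was H3.3K27L ESC 72 h replicate 2, the library of 68378 counts. In that library 9.53% of counts were mitochondrial (2.2 to 2.61% in the other H3.3K27L libraries), and the role medians were -1.32 for ATF4 targets, -1.697 for ERAD and membrane genes, -0.433 for chaperones and -2.896 for transcription factors (log2, relative to the WT-H3.3 ESC mean). There Pdia6 was 189.6 CPM, Hyou1 102.1 CPM and Phgdh 14.58 CPM, and Dnajb9, Atf5 and Slc7a11 were at 0 CPM. In the H3.3K27L line, Psat1 was also far above the rest in 72 h replicate 1 (542.9 CPM) and Pdia3 in 24 h replicate 2 (861.1 CPM). In the GSK343 libraries, the 8 h replicate 2 total was 1247934 counts, with Pdia4 at 214.1 CPM and Derl3 at 5.656 CPM, and 4 h replicate 2 was high in Calr (1972 CPM), Pdia3 (864.3 CPM) and Dnajb11 (159.4 CPM). In H3.3K27M, Hsp90b1 was 1272 CPM in 72 h replicate 2, beside 578.6 to 818.5 CPM in the other 7.

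The effects of the mutants differed in ESCs, by edgeR's test of the difference, for 7 genes: Phgdh by 0.746, Psat1 by 0.858, Ddit3 by 0.952, Xbp1 by 0.442, Atf5 by 0.457, Asns by 0.367 and Herpud1 by 0.514 (log2, H3.3K27M minus H3.3K27L). The effect of H3.3K27M differed between OPCs and ESCs for 8 genes: Atf3 by -4.526, Ppp1r15a by -3.577, Ddit3 by -2.858, Dnajb9 by -1.356, Atf4 by -1.267, Xbp1 by -1.068, Trib3 by 2.065 and Pdia4 by 1.05 (log2, OPC minus ESC).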

How the results depend on the processing

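Counts of called members were within 1.5 times the main count under every other setting run except the following. Without the fold limit they rose to 1 (ESC H3.3K27L), 6 (H3.3K27M against H3.3K27L), 18 (OPC H3.3K27M), 17 (RA against ESC at 24 h), 27 (OPC against ESC) and 21 (RA 72 h against 24 h), since this rule is wider by construction. The test of time between ESC groups gave 1 member with no filter on low counts, and RA H3.3K27L gave 1 with Dox time as a block. The cause of these 2 changes was not tested. Leaving out each library in turn gave 7 to 11 members in OPCs, 9 to 13 for RA time, 7 to 10 and 16 to 17 for RA against ESC at 24 h and 72 h, 16 to 23 for OPC against ESC, 0 to 3 for H3.3K27M against H3.3K27L (3 without H3.3K27L 72 h replicate 1), 5 to 8 for the difference between OPCs and ESCs (5 without OPC H3.3K27M 72 h), and 0 to 0 for the planned ESC and RA line comparisons. Atf3 in OPC against ESC ran from -0.348 (without OPC WT-H3.3 24 h) to 1.893, the only reversal among 122 gene results. Of 611 values under other settings 29 no longer passed, and of 2014 with a library left out 90 did not. The replicate block called 0 members in the ESC comparisons and changed no member's call, and with the H3.3K27L numbers crossed at 4, 8 and 24 h, a pairing chosen after seeing the data, it called 0 members and 615 genes, against 546 uncrossed. Low depth limits Derl3, Chac1 and Slc7a11. Over all genes, no filter on low counts raised the calls in ESCs from 2 to 152 (H3.3K27M), 481 to 750 (H3.3K27L), 0 to 26 (GSK343), 39 to 120 (time) and 0 to 51 (time between groups). H3.3K27M gave 4 with DESeq2, 23 with the replicate block, 0 with the libraries compared alone or without both shallow libraries, and 0 to 131 with a library left out. H3.3K27L gave 117 to 657 with a library left out, and time gave 19 with DESeq2, 22 without both shallow libraries and 12 to 54 with a library left out. RA H3.3K27L gave 445 with the Dox-time block, 5 with DESeq2 and 7 unfiltered against 0, and RA H3.3K27M 2 with the block.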

Other observations

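Beyond the 33 genes, the sensors and regulators of both responses and further ER genes were examined from lists that were also chosen with earlier results known. Of 12 sensors and regulators tested in OPCs, 1 was called lower and 0 higher, where 15% and 12.9% of all genes were. Beside that gene, Eif2ak2 (-1.26, edgeR adjusted p = 0.000246), the sensor Atf6 passed the test on the lower side (-0.87, SE 0.15, edgeR adjusted p = 0.000506), and so did Creb3, a transcription factor held in the ER membrane (-0.95, SE 0.16, edgeR adjusted p = 0.000563). The effect of H3.3K27M differed between OPCs and ESCs for Eif2ak2 by -1.50 (SE 0.34, edgeR adjusted p = 0.00464) and for Atf6 by -1.11 (SE 0.33, edgeR adjusted p = 0.0245). Of 27 further ER folding, translocation and ERAD genes tested in OPCs, 4 passed the test on the higher and 7 on the lower side, with none past a fold of 2. Of all genes 51.5% passed and 27.9% were called in this comparison. Ube2j1, an ERAD ubiquitin-conjugating enzyme, was lower (-0.88, SE 0.13, edgeR adjusted p = 0.000266), and Sec61a1, the channel subunit of the translocon, was higher by 0.64 (SE 0.20, edgeR adjusted p = 0.0222).

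In the stage comparisons, which share ESC libraries, the same 27 ER genes were called higher in 3 and lower in 1 for RA cells at 24 h, in 7 and 4 for RA cells at 72 h, and in 8 and 5 for OPCs. Over all genes 23.6%, 26.5% and 31.3% were called higher and 18.5%, 30.4% and 35.8% lower in these comparisons. Of 31 further ATF4 pathway genes, 1, 2 and 4 were called higher and 14, 21 and 15 lower, beside the same shares of all genes.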
